A study of Mus musculus with 10 samples.

Results

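Heparan sulfate and hyaluronan are long, unbranched sugar chains of the endothelial glycocalyx, and the genes described here encode 10 enzymes that build, modify or cut them. They are *Xylt2*, *Ext1*, *Ext2*, *Ndst1*, *Ndst2*, *Hs2st1*, *Hs6st1*, *Glce*, *Has2* and *Hyal2*. They were taken by gene name, as enzymes of the linker, of polymerisation and of sulfation of heparan sulfate and as a synthase and a hydrolase of hyaluronan. All 10 names were found, each once, among the 27024 named genes of the expression table. Of the 10 genes, 8 act on heparan sulfate and 2 on hyaluronan.

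RNA was sequenced from bEnd.3 cells, a mouse brain endothelial line transformed with polyomavirus middle T antigen, in 10 samples. Saline was added to 5 of them (numbered 1, 2, 3, 4 and 5), and the mucinase StcE was added at 5 nM to the other 5 (numbered 1, 2, 3, 5 and 6) after passage over endotoxin removal columns, each for 16 h. StcE is a bacterial protease that cuts proteins bearing dense mucin-type O-glycans, and the comparison asks which transcripts differed after those proteins were cut. No sample given inactivated StcE is analysed here, and nothing states that the replicates were separate cultures, so p-values measure only the spread between these samples, which may be technical.

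Values are FPKM as deposited, that is, fragments scaled by exon length and by a factor for each sample. That factor followed the median-of-ratios size factor more closely than the total of fragments. Multiplied by exon length, 96.64% of the values above 0 came out as whole fragments (within 0.05 of a whole number), which gave 21864604 to 33147402 fragments per sample. The members rested on unequal numbers of fragments. *Ext2* had 5728 to 8719 fragments per sample, *Glce* 553 to 907, and *Has2* only 34 to 96. Depth therefore limits *Has2* most.

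The label of the cells was checked against marker genes. All 8 endothelial markers were expressed, led by *Cdh5* with a mean of 486 FPKM. Whether the endothelium was of brain origin was not checked. Of 28 markers of pericytes and smooth muscle, astrocytes, leukocytes, neurons, oligodendrocytes, fibroblasts and epithelium, 25 were in the table and 23 of these averaged under 1 FPKM. The exceptions were *Gja1*, a gap junction gene also found in endothelium, with a mean of 24.8 FPKM, and *Acta2*, with 3.14 FPKM. *Rgs5*, *Lum* and *Cdh1* were not in the table.

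Several endothelial markers were lower after StcE. By limma with Benjamini-Hochberg adjustment over all genes tested, 5 of the 8 (*Pecam1*, *Tek*, *Tie1*, *Erg* and *Esam*) passed in the lower direction and 0 in the higher, against 6.41% and 5.52% of all genes tested. *Pecam1*, *Erg* and *Esam* were close to the threshold (limma, adjusted p = 0.0425, 0.0356 and 0.0456), and the groups overlapped for *Pecam1* and *Erg*. *Tek* and *Tie1* had adjusted p = 0.00857 and 0.00295 (limma). Their log2 fold changes were -0.24 and -0.18, and those of *Pecam1*, *Erg* and *Esam* were -0.11, -0.12 and -0.070. *Cdh5* (adjusted p = 0.0515, limma), *Kdr* (adjusted p = 0.138) and *Cldn5* (adjusted p = 0.842) did not pass, and the estimate for *Cldn5* was above 0. The summed level of the 8 was 1736, 1641, 1648, 1737 and 1598 FPKM in saline samples 1 to 5, and 1509, 1547, 1574, 1598 and 1595 FPKM in StcE samples 1, 2, 3, 5 and 6. StcE sample 1 had the lowest sum, and the groups met at the lowest saline sample. In bulk RNA, fewer cells of a type and less RNA per cell cannot be told apart, and the part of this shift in the results on the enzymes was not tested.

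Heparan sulfate is made in the Golgi on core proteins: a short linker begun with xylose is extended by the paired polymerases EXT1 and EXT2 into alternating glucuronic acid and N-acetylglucosamine, which sulfotransferases and an epimerase then modify. Hyaluronan has no core protein and no sulfate, is extruded through the plasma membrane by its synthases, and is cut by hyaluronidases. On brain endothelium both contribute to the luminal glycocalyx, the layer between blood and vessel wall.

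FPKM is per length, so levels can be set side by side. *Hyal2* was the highest, with a mean of 50.1 FPKM over all samples, followed by *Ext2* (35.2 FPKM), *Ndst1* (25.6 FPKM), *Hs2st1* (18.2 FPKM) and *Hs6st1* (11.7 FPKM). Below them came *Ext1* (7.77 FPKM), *Ndst2* (7.66 FPKM), *Xylt2* (6.46 FPKM), *Glce* (3.82 FPKM) and *Has2* (0.533 FPKM). Neighbours in this order did not overlap over the 10 samples, with 2 exceptions. *Ext1* lay above *Ndst2* in 4 of 5 saline samples and in 1 of 5 StcE samples, so their order over all samples is not resolved. *Ndst2* and *Xylt2* overlapped in range, although *Ndst2* was the higher in each of the 10 samples.

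**Figure D1:**
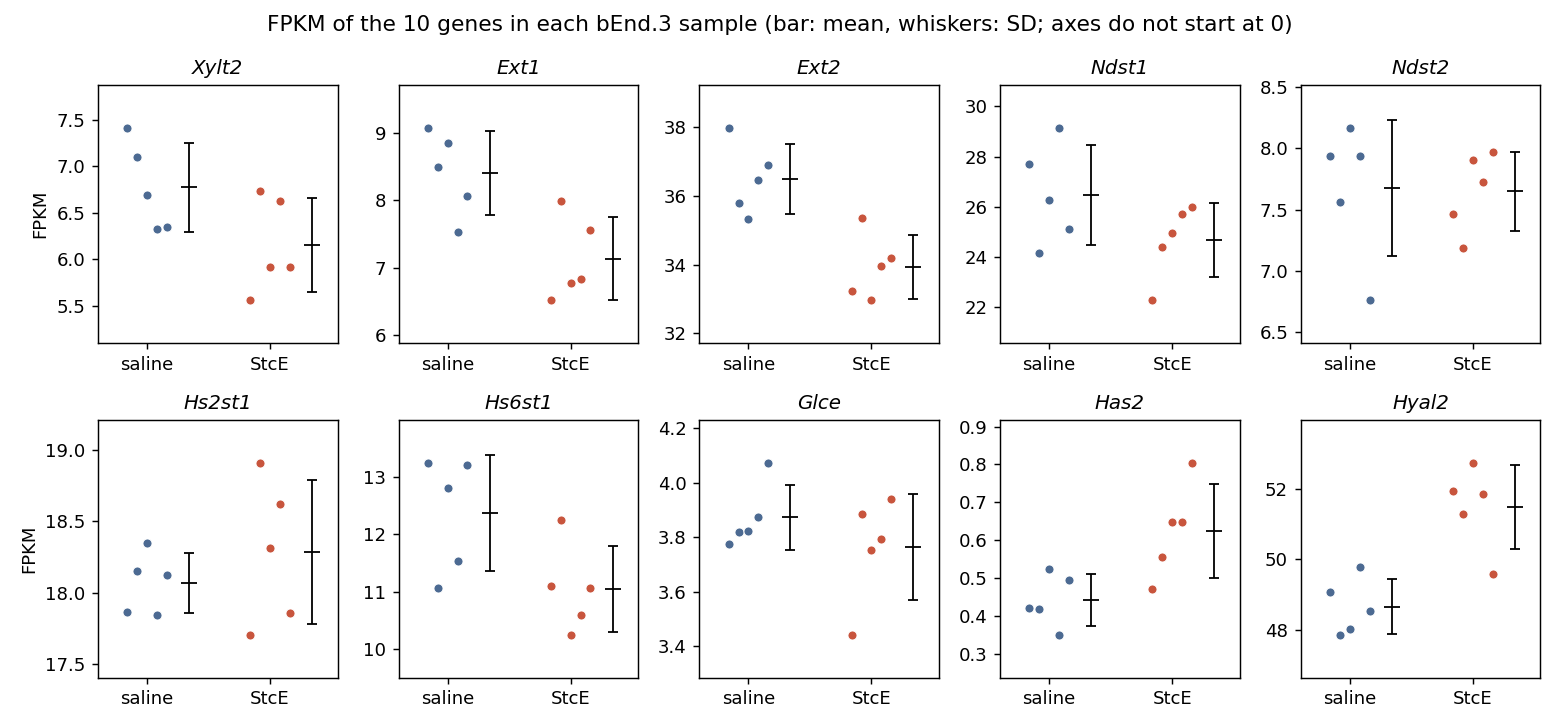
FPKM of each of the 10 genes (vertical axes, which do not start at 0) in each bEnd.3 sample, 1 point per sample and 5 per group, with the group mean as a bar and the SD as whiskers. *Ext1* and *Ext2*, which passed, lie lower after StcE, and *Hyal2*, which passed, lies higher. The other genes did not pass, among them *Has2*, whose mean is higher with StcE. In every panel at least 1 sample of a group falls within the range of the other.

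StcE was compared with saline by limma on log2(FPKM + 1) for the 11062 genes with a mean of at least 1 FPKM, at an adjusted p threshold of 0.05. *Has2* fell below that minimum, so 9 of the 10 enzymes were tested. Of these 9, 3 passed the threshold, and 11.9% of all genes tested did so. In the lower direction 2 passed (*Ext1* and *Ext2*), against 6.41% of all genes, and in the higher direction 1 passed (*Hyal2*), against 5.52%. With so few genes these counts do not set the enzymes apart from the rest of the transcriptome. Samples of the groups overlapped for all 9, whereas 10.7% of all genes tested had groups that did not overlap. The median log2 fold change of the 9 was -0.097, beside -0.00066 for all genes tested, and 7 of the 9 estimates were below 0, of which that of *Ndst2* turned above 0 when values were scaled to total fragments. The count over all genes was 1320, and it was 793 without StcE replicate 3 and 838 without saline replicate 1.

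All 3 calls lay close to the threshold. With *Has2* and every other low gene included, which raised the number of tests to 27024, 0 of 10 enzymes passed in limma, while among the genes past the filter 5 of the 9 enzymes had an unadjusted p under 0.05, as did 27.8% of all genes tested. When 1 sample at a time was left out, between 0 and 3 of the 9 passed. The count was 0 without saline replicate 1 and without StcE replicates 1, 3 or 5, and 1 without saline replicates 2, 3 or 5. Each estimate kept its sign in all alternatives except that of *Ndst2*.

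**Figure D2:**
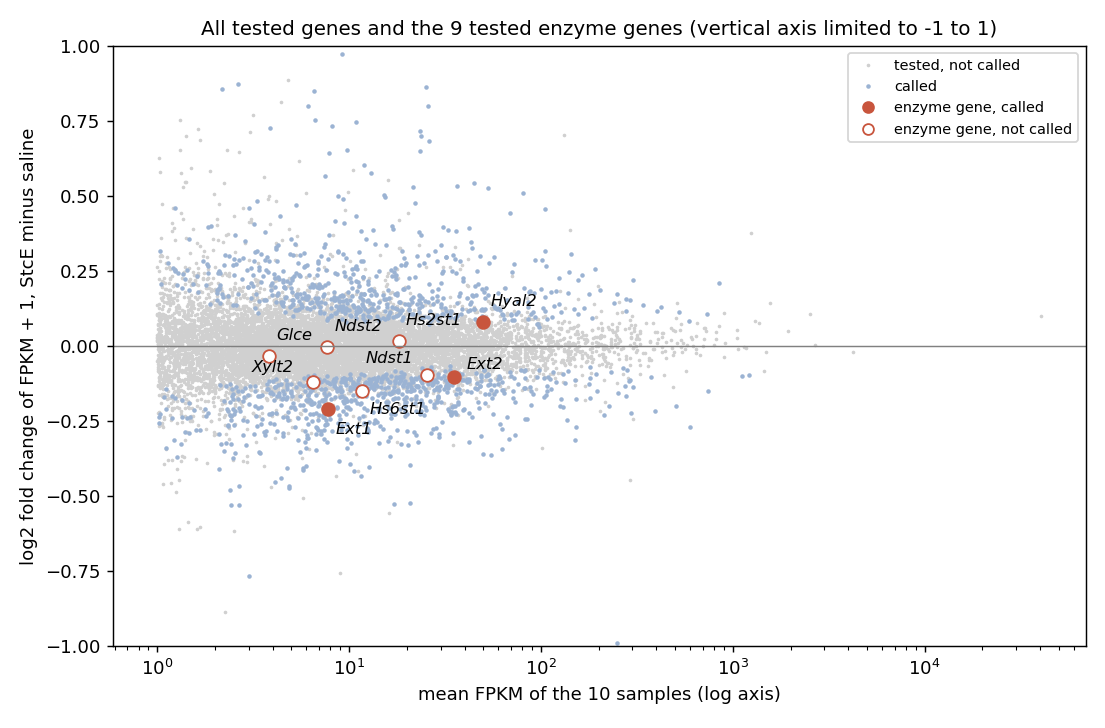
Log2 fold change of FPKM + 1, StcE minus saline (vertical axis), against mean FPKM (horizontal log axis) for the 11062 tested genes, grey where not called and blue where called, with the 9 tested enzymes as large points, filled where called. *Ext1* and *Ext2* sit among the called genes below 0 and *Hyal2* above 0, and 15 genes beyond -1 or 1 are not drawn.

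The chain begins with *Xylt2*, which encodes a xylosyltransferase that adds the first sugar of the linker to a serine of the core protein. Its FPKM was 7.41, 7.10, 6.69, 6.32 and 6.35 in saline samples 1 to 5 and 5.57, 6.74, 5.91, 6.62 and 5.92 in StcE samples 1, 2, 3, 5 and 6. In StcE samples 1, 3 and 6 it lay below every saline sample, while StcE samples 2 and 5 fell inside the saline range. The mean was 6.77 ± 0.475 FPKM with saline and 6.15 ± 0.505 FPKM with StcE (SD, n = 5 each). The log2 fold change was -0.12 (95% confidence interval -0.24 to -0.0018) and did not pass (limma, adjusted p = 0.175; exact two-sided permutation p = 0.0714).

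Among 9 other genes that finish the linker or start and stop the chain, 6 were tested, 1 rose and 0 fell (5.52% and 6.41% of all genes tested), with a median log2 fold change of 0.046. The gene that rose was *B4galt7*, the galactosyltransferase that acts directly after the xylosyltransferases. Its FPKM was 9.96, 9.38, 10.1, 9.62 and 9.93 with saline and 12.2, 11.4, 12.2, 12.4 and 11.9 with StcE. All 5 StcE samples exceeded all 5 saline samples. Its log2 fold change of 0.27 (SE 0.029) passed in limma (adjusted p = 0.000209) and in each of 19 alternatives (adjusted p 9.29e-05 to 0.0104). *Extl3*, which primes the chain, and *B3gat3*, which closes the linker, had the highest levels of this list. They did not pass, with log2 fold changes of -0.068 (adjusted p = 0.268, limma) and 0.048 (adjusted p = 0.48, limma). With 1 sample left out, the estimates ran from -0.085 to -0.038 for *Extl3* and from 0.025 to 0.082 for *B3gat3*. *Xylt2* and *B4galt7*, which act in consecutive steps, thus had estimates of opposite sign, although only the second was called and the difference between them was not tested.

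The polymerase genes *Ext1* and *Ext2* encode the subunits of the complex that lengthens the chain, and both were lower after StcE. *Ext1* lies at chr15:53064038-53346159 on the minus strand of GRCm38 (ENSMUSG00000061731.9) and is protein coding. Its FPKM was 9.08, 8.49, 8.86, 7.54 and 8.06 in saline samples 1 to 5, and 6.52, 7.99, 6.77, 6.83 and 7.56 in StcE samples 1, 2, 3, 5 and 6. StcE samples 1, 3 and 5 lay below every saline sample, and StcE samples 2 and 6 reached the lower part of the saline range. The mean fell by 15.1%, from 8.40 ± 0.621 to 7.13 ± 0.615 FPKM (SD, n = 5 each). The log2 fold change was -0.21 (SE 0.058, interval -0.34 to -0.084), which passed in limma (adjusted p = 0.0374), with an exact two-sided permutation p of 0.0238.

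The *Ext1* call depended on several samples. It was lost without saline replicate 1, 2 or 3 (limma, adjusted p = 0.088, 0.0688 and 0.0829) and without StcE replicate 1, 3 or 5 (adjusted p = 0.0837, 0.0906 and 0.0803). Over 19 alternatives the adjusted p ran from 0.0082 to 0.111, and 10 of them passed.

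*Ext2* lies at chr2:93661028-93822568 on the minus strand of GRCm38 (ENSMUSG00000027198.16). Its FPKM was 38.0, 35.8, 35.3, 36.4 and 36.9 with saline and 33.2, 35.4, 33.0, 34.0 and 34.2 with StcE, in the same order of samples. In 4 of 5 StcE samples it was below the lowest saline sample, and StcE sample 2 just exceeded saline sample 3. The mean fell by 6.99%, from 36.5 ± 1.03 to 33.9 ± 0.935 FPKM (SD, n = 5 each). The log2 fold change of -0.10 (SE 0.027, interval -0.16 to -0.044) passed in limma (adjusted p = 0.0302), and the exact two-sided permutation p was 0.0159.

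The *Ext2* call was likewise lost without saline replicate 1, 4 or 5 (limma, adjusted p = 0.0739, 0.0557 and 0.0584) and without StcE replicate 1, 3 or 5 (adjusted p = 0.0668, 0.0782 and 0.0599). Its adjusted p ran from 0.0177 to 0.168 over 19 alternatives, of which 10 passed. StcE sample 2 was the highest StcE sample for both polymerase genes, and saline sample 1 the highest saline sample for both.

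Promoter sequences were available for 7 of the 10 enzymes in the RefSeq table (GRCm38.p6), from 250 bases before to 50 bases after the gene start that RefSeq gives; *Ext1*, *Ndst1* and *Has2* had no entry. Each was searched on both strands for short promoter motifs. The GC box, spelled GGGCGG, was found in 6 of the 7, and in 35.7% of all 32851 promoters of the table. The CCAAT box, spelled as its name, was found in 2 of the 7 and in 37.4% of all promoters. The E-box CACGTG was found in 1 of the 7 and in 7.15% of all promoters, and the TATA box, spelled TATAAA, in 0 of the 7 and in 13.6%. The G and C content of the 7 ran from 58% to 78%, against a median of 52.7% over all promoters. A match describes letters only. The promoters of *Ext2* (chr2:93822519-93822818, minus strand) and *Hyal2* (chr9:107568913-107569212, plus strand) are shown because they are the called enzymes with an entry, 1 lower and 1 higher after StcE, with matches in capitals. The RefSeq start of *Hyal2* lies downstream of the GENCODE start used for its position (chr9:107567945-107572779), so the stretch shown lies inside the GENCODE gene and not before it. That of *Ext2* held the only CACGTG among the 7 and no GGGCGG, and that of *Hyal2* held a single GGGCGG, so no matches overlap in either.
Ext2: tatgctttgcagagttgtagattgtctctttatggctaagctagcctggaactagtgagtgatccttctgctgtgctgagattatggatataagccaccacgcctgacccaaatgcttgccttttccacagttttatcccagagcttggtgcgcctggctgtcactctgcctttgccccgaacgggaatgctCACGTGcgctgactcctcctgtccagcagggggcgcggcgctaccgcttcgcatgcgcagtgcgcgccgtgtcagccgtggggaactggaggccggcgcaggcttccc
Hyal2: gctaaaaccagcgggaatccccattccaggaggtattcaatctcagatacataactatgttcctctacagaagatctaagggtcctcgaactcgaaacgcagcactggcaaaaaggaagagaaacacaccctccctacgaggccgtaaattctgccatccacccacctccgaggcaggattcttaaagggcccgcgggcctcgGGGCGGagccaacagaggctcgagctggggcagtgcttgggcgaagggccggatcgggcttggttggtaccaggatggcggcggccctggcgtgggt

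Modification of the chain begins with *Ndst1* and *Ndst2*, whose enzymes remove acetyl groups from glucosamine and put sulfate in their place. *Ndst1* FPKM was 27.7, 24.1, 26.3, 29.1 and 25.1 with saline and 22.3, 24.4, 24.9, 25.7 and 26.0 with StcE. Only StcE sample 1 was below every saline sample, and the other StcE samples lay within the saline range. Its log2 fold change of -0.097 (interval -0.21 to 0.019) did not pass (limma, adjusted p = 0.264; exact permutation p = 0.151). The estimate was -0.063 without saline replicate 4 and -0.062 without StcE replicate 1. *Ndst2* ranged from 6.76 to 8.17 FPKM with saline and from 7.19 to 7.97 FPKM with StcE. The StcE range lay wholly inside the saline range, and the log2 fold change of -0.0027 (interval -0.10 to 0.098) did not pass (limma, adjusted p = 0.98), with a sign that turned in 6 of 19 alternatives. Of these, 5 left out a sample (saline replicate 1, 3 or 4, or StcE replicate 1 or 2), and the estimates with 1 sample left out ran from -0.042 to 0.018.

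*Glce* encodes the epimerase that turns glucuronic acid into iduronic acid, and *Hs2st1* the 2-O-sulfotransferase that acts mainly on the product. *Glce* ranged from 3.78 to 4.07 FPKM with saline and from 3.44 to 3.94 FPKM with StcE, with a log2 fold change of -0.033 (interval -0.11 to 0.046; limma, adjusted p = 0.594). The estimate for *Glce* was -0.019 without saline replicate 5 and -0.0086 without StcE replicate 1. *Hs2st1* ranged from 17.8 to 18.3 FPKM with saline and from 17.7 to 18.9 FPKM with StcE. Its spread was 0.211 FPKM (SD, n = 5) in the saline group, small beside its mean of 18.1 FPKM, and 0.503 FPKM in the StcE group. The log2 fold change of *Hs2st1* was 0.016 (interval -0.036 to 0.068; limma, adjusted p = 0.712), and it was 0.027, 0.0042 and 0.0095 without StcE replicates 1, 2 and 5.

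*Hs6st1* encodes a 6-O-sulfotransferase that acts on glucosamine. Its FPKM was 13.2, 11.1, 12.8, 11.5 and 13.2 with saline and 11.1, 12.2, 10.3, 10.6 and 11.1 with StcE. The saline samples fell apart into 3 high and 2 low values. StcE sample 1 fell among the low ones, StcE sample 2 between the low and the high ones, and StcE samples 3, 5 and 6 below them all. The mean was 12.4 ± 1.01 FPKM with saline and 11.1 ± 0.753 FPKM with StcE (SD, n = 5 each). Its log2 fold change of -0.15 (interval -0.27 to -0.026) did not pass (limma, adjusted p = 0.11; exact permutation p = 0.0556), although it did in limma's voom on recovered fragments (adjusted p = 0.0484, with a range of 0.0484 to 0.267 over 19 alternatives). An antisense gene, *Gm37335*, covers 8.07% of the exons of *Hs6st1*, and whether counting used strand is not given in the sources used here, so its reads may be shared.

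Of 13 other sulfotransferases and editing enzymes of heparan sulfate, 4 were tested, 2 fell and 0 rose (6.41% and 5.52% of all genes tested), and the median log2 fold change was -0.15. The genes that fell were *Hs6st2*, a relative of *Hs6st1*, and *Sulf2*, an extracellular enzyme that removes 6-O-sulfate. *Hs6st2* was 3.03, 3.06, 2.70, 2.57 and 2.87 FPKM with saline and 2.54, 2.47, 2.21, 2.54 and 2.24 FPKM with StcE, so that its groups did not overlap (log2 fold change -0.18; limma, adjusted p = 0.038). *Sulf2*, at 43.4 ± 1.90 FPKM with saline and 39.1 ± 2.13 FPKM with StcE (SD, n = 5 each), had a log2 fold change of -0.15 (limma, adjusted p = 0.037). These calls were also close to the threshold: that of *Hs6st2* was lost in 8 of 10 fits that left out a sample, all but those without saline replicate 4 or StcE replicate 1 (adjusted p 0.0274 to 0.0941, and 0.0102 to 0.103 over 19 alternatives), and that of *Sulf2* in 7 of 10, all but those without saline replicate 2 or 5 or StcE replicate 2 (adjusted p 0.0282 to 0.0866, and 0.0131 to 0.224 over 19 alternatives).

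Hyaluronan is represented by *Has2*, a synthase of the plasma membrane, and *Hyal2*, a hyaluronidase anchored at the cell surface and in lysosomes. *Has2* lies at chr15:56665627-56694539 on the minus strand of GRCm38. It was the least expressed of the 10 enzymes, at 0.419, 0.419, 0.523, 0.350 and 0.495 FPKM in saline samples 1 to 5 and 0.471, 0.555, 0.647, 0.647 and 0.805 FPKM in StcE samples 1, 2, 3, 5 and 6. In 4 of 5 StcE samples it exceeded every saline sample, and StcE sample 1 fell inside the saline range. The mean was 0.441 ± 0.0687 FPKM with saline and 0.625 ± 0.124 FPKM with StcE (SD, n = 5 each), a ratio of 1.42.

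*Has2* was fitted without the filter, where its log2 fold change on the log2(FPKM + 1) scale was 0.17 (interval 0.041 to 0.30) and did not pass (limma, adjusted p = 0.185). That scale understates the change of a gene at this level, and the log2 ratio of the means was 0.50. The exact two-sided permutation p for *Has2* alone was 0.0238, unadjusted for the other genes. The antisense gene *Has2os* covers 4.30% of its exons. With a pseudocount of 0.1 the log2 fold change was 0.41 (limma, adjusted p = 0.241). On the 8 samples that share a replicate number it was 0.109, with or without a replicate block (limma, adjusted p = 0.361 and 0.387). Over 17 alternatives the adjusted p ran from 0.11 to 0.387.

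In GENCODE, *Hyal2* lies at chr9:107567945-107572779 on the plus strand of GRCm38 (ENSMUSG00000010047.12). Its FPKM was 49.1, 47.9, 48.0, 49.8 and 48.5 in saline samples 1 to 5 and 51.9, 51.3, 52.7, 51.9 and 49.6 in StcE samples 1, 2, 3, 5 and 6. StcE samples 1, 2, 3 and 5 exceeded every saline sample, and StcE sample 6 lay just under saline sample 4. The mean was 48.7 ± 0.782 FPKM with saline and 51.5 ± 1.18 FPKM with StcE (SD, n = 5 each), an increase of 5.78%. The log2 fold change was 0.079 (SE 0.022, interval 0.031 to 0.13), which passed in limma (adjusted p = 0.0393), with an exact two-sided permutation p of 0.0159.

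The *Hyal2* call was lost without saline replicate 1, 2, 3 or 5 (limma, adjusted p = 0.0702, 0.0806, 0.0869 and 0.0665) and without StcE replicate 1, 2, 3 or 5 (adjusted p = 0.0781, 0.0584, 0.0992 and 0.0836). Of 19 alternatives 8 passed, with adjusted p from 0.0205 to 0.106. *Hyal2* had the smallest change of the called enzymes and also a small spread between samples.

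Of 13 other genes of hyaluronan synthesis, breakdown and binding, 6 were tested, 1 rose and 0 fell (5.52% and 6.41% of all genes tested), with a median log2 fold change of -0.021. The other synthase genes were lower still, *Has1* at 0.0923 FPKM and *Has3* at 0.297 FPKM in the saline group, so *Has2* was the highest of the synthases in these cells, though itself low. The gene that rose was *Cd44*, the main hyaluronan receptor of many cells. It was 46.1, 46.4, 48.4, 43.7 and 45.5 FPKM with saline and 50.6, 53.9, 52.9, 52.2 and 53.5 FPKM with StcE. The groups did not overlap, and the log2 fold change of 0.19 (SE 0.029) passed in limma (adjusted p = 0.00169) and in each of 19 alternatives (adjusted p 0.000217 to 0.0413). *Stab1*, a scavenger receptor that binds hyaluronan, had the highest level of this list at 72.7 FPKM with saline. It did not pass (log2 fold change -0.061, adjusted p = 0.593, limma), and its estimate ran from -0.101 to -0.021 with 1 sample left out.

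**Figure D3:**
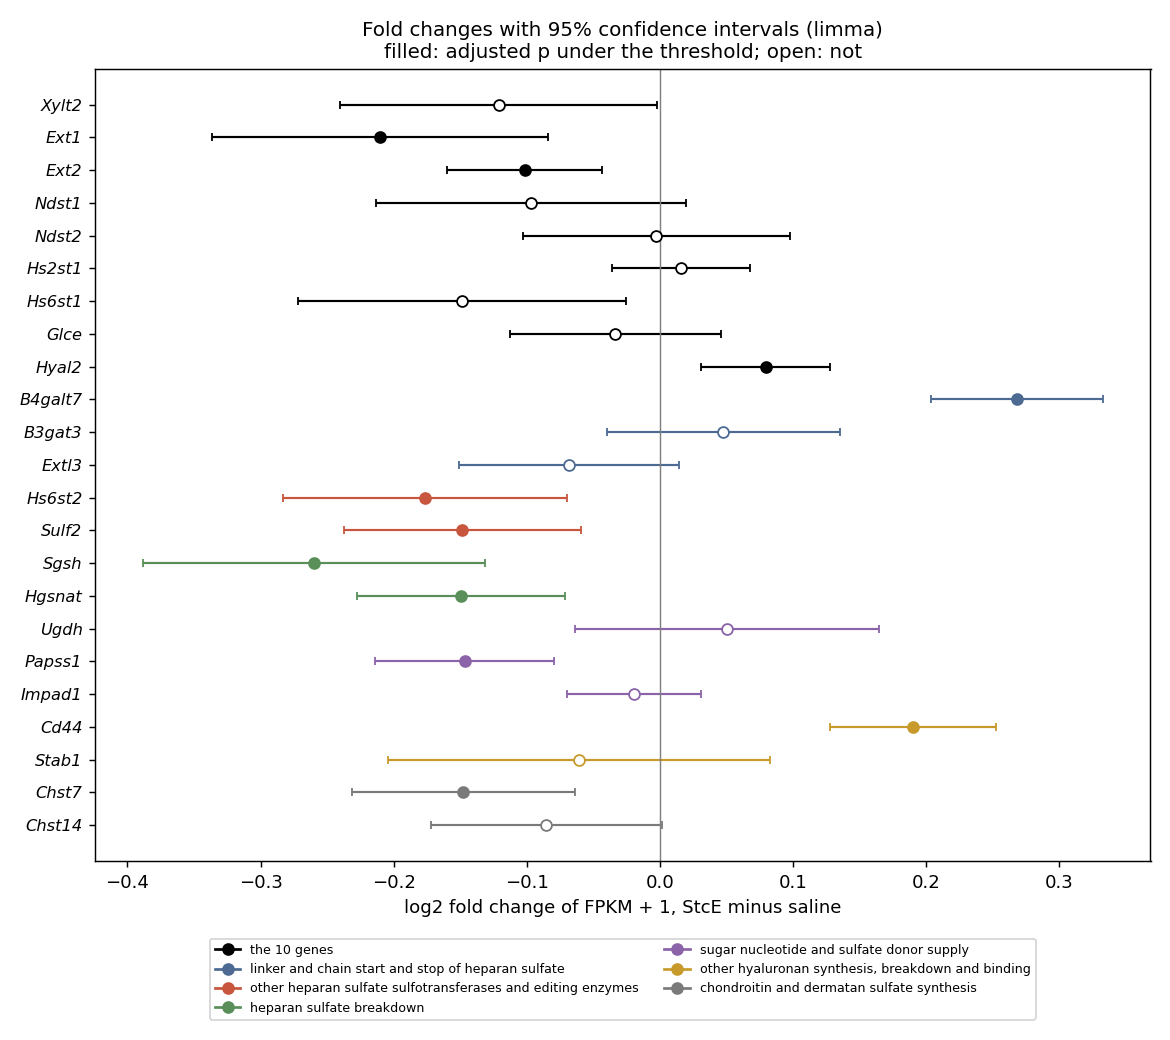
Log2 fold change of FPKM + 1, StcE minus saline (horizontal axis), with 95% confidence intervals from limma for the 9 tested enzymes (black) and genes named from 6 neighbouring lists (colours), filled where the adjusted p was under 0.05. *B4galt7* (0.27) and *Cd44* (0.19) lie farthest above 0, and *Sgsh* (-0.26) and *Ext1* (-0.21) farthest below.

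The remaining lists cover what the enzymes consume, what degrades their products and the sister chains. Of 16 genes that supply sugar nucleotides and sulfate donors to these enzymes, 15 were tested, 1 fell and 0 rose (6.41% and 5.52% of all genes tested), with a median log2 fold change of -0.019. That gene was *Papss1*, which encodes an enzyme that makes the sulfate donor of the sulfotransferases. It was at 31.1 ± 0.992 FPKM with saline and 28.0 ± 1.03 FPKM with StcE (SD, n = 5 each), with groups that did not overlap (log2 fold change -0.15; limma, adjusted p = 0.0109). Over 19 alternatives 17 passed, with adjusted p from 0.00526 to 0.0878. *Impad1* and *Ugdh* did not pass, with log2 fold changes of -0.019 and 0.051 (limma, adjusted p = 0.635 and 0.575). The latter is the source of the glucuronic acid donor of the polymerases and hyaluronan synthases. With 1 sample left out, the estimates ran from -0.029 to -0.0079 for *Impad1* and from 0.0078 to 0.079 for *Ugdh*.

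Of 10 genes that break heparan sulfate down, mostly in lysosomes, 7 were tested, 3 fell and 0 rose (6.41% and 5.52% of all genes tested), with a median log2 fold change of -0.13. Among them, *Sgsh* had a log2 fold change of -0.26 (limma, adjusted p = 0.0164) and *Hgsnat* of -0.15 (limma, adjusted p = 0.0211). The call of *Hgsnat* was lost without StcE replicate 3 (limma, adjusted p = 0.0563, with a range of 0.0176 to 0.0795 over 19 alternatives). The call of *Sgsh* was lost with no filter (limma, adjusted p = 0.056), and 17 of 19 alternatives passed (adjusted p 0.00385 to 0.0856). *Sgsh* also shares 21.6% of its exon length with *Card14* on the other strand and is uncertain for that reason. Of 16 genes of chondroitin and dermatan sulfate synthesis, which branch from the same linker, 10 were tested, 1 fell and 0 rose (6.41% and 5.52% of all genes tested), with a median log2 fold change of -0.079. The gene that fell was *Chst7* (log2 fold change -0.15; limma, adjusted p = 0.0293). The *Chst7* call was lost in 7 of 10 fits that left out a sample, all but those without saline replicate 2 or StcE replicate 2 or 5 (adjusted p 0.00763 to 0.0743, and up to 0.18 over 19 alternatives), and *Chst14*, the highest gene of that list, did not pass (log2 fold change -0.085; limma, adjusted p = 0.187). Over the 6 lists, 9 of 48 tested genes passed, 7 lower and 2 higher, beside 11.9% of all genes tested, 6.41% lower and 5.52% higher. With lists this small nothing particular to them is read from these counts.

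**Figure D4:**
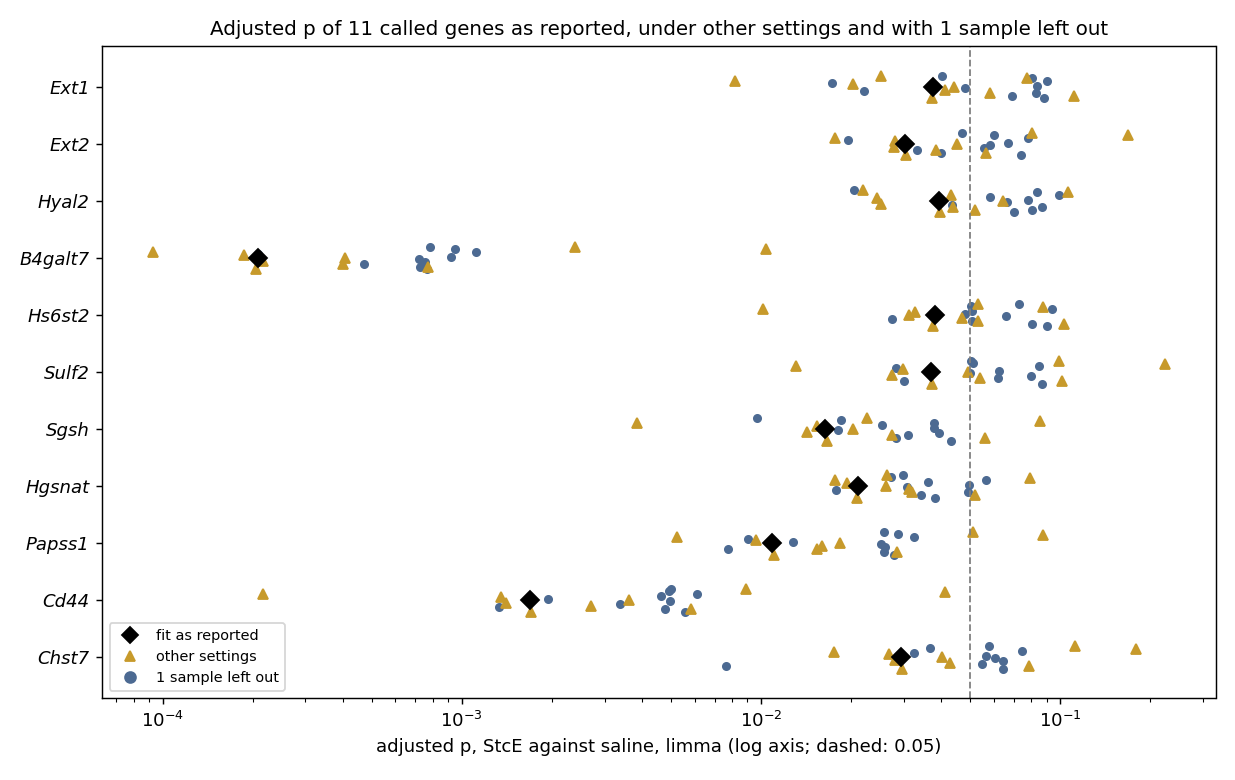
Adjusted p of StcE against saline from limma (horizontal log axis, with a dashed line at 0.05) for 11 of the 12 called genes among the enzymes and their neighbouring lists, as reported (diamonds), under other settings (triangles) and with 1 sample left out (circles). *Ext1*, *Ext2* and *Hyal2* straddle the line, whereas *B4galt7* and *Cd44* stay to its left under every setting shown.

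Levels of partner enzymes were also set against each other within each sample, as a description with no test. The ratio of *Ext1* to *Ext2* FPKM was 0.239, 0.237, 0.251, 0.207 and 0.218 with saline and 0.196, 0.226, 0.205, 0.201 and 0.221 with StcE. *Ext2* thus exceeded *Ext1* several-fold in every sample, and the ratio was below every saline sample in 3 of 5 StcE samples. The ratio of *Ndst1* to *Ndst2* averaged 3.46 ± 0.245 with saline and 3.23 ± 0.161 with StcE, and that of *Hs2st1* to *Glce* 4.67 ± 0.143 and 4.87 ± 0.219 (SD, n = 5 each). Both overlapped between groups, although the ratio of *Hs2st1* to *Glce* was above every saline sample in 4 of 5 StcE samples.

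The ratio of *Has2* to *Hyal2* FPKM was 0.00908 ± 0.00151 with saline and 0.0122 ± 0.00264 with StcE (SD, n = 5 each), above every saline sample in 3 of 5 StcE samples. The summed FPKM of the 8 heparan sulfate enzymes was 125, 116, 120.3, 120.6 and 119 with saline and 107, 117, 111, 114 and 114 with StcE. In 4 of 5 StcE samples the sum was below every saline sample, and StcE sample 2 just exceeded saline sample 2. The most abundant genes, *Ext2* and *Ndst1*, weigh most in this sum. StcE sample 1 had the lowest sum and the lowest *Xylt2*, *Ext1*, *Ndst1*, *Hs2st1* and *Glce*. It had 21864604 recovered fragments, and saline sample 4, with the second highest sum and the highest *Ndst1*, had 21922594. The part of depth in these values was not tested.

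**Figure D5:**
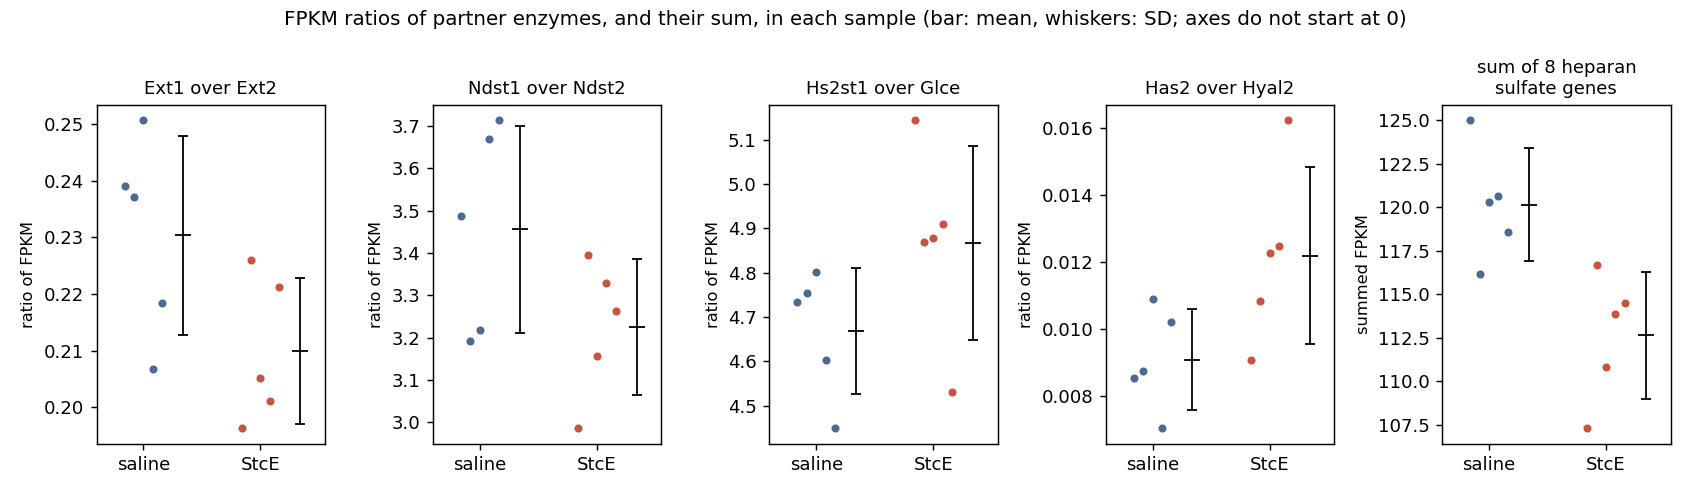
Ratios of FPKM of partner enzymes and the summed FPKM of the 8 heparan sulfate enzymes (vertical axes, which do not start at 0) in the 5 saline and 5 StcE samples, 1 point per sample, with the group mean as a bar and the SD as whiskers. Every ratio overlaps between groups, and the sum lies at 116 to 125 FPKM with saline and 107 to 117 FPKM with StcE.

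For the 3 called enzymes, the genes most alike over the 10 samples were listed by Pearson correlation of log2(FPKM + 1), as a description in which the treatment is shared by all genes. *Ext2* was closest to *Wee1* (r = 0.968), *Llgl1* (r = 0.967) and *Clstn1* (r = 0.958), over 10 samples. *Ext1* was closest to *Efnb1* (r = 0.99), *Thbs1* (r = 0.96) and *Pcsk6* (r = 0.95). *Hyal2* was closest to *Mmp3* (r = 0.963), *Pvr* (r = 0.959) and *Pkm* (r = 0.959). Each was the top of 11062 tested genes and was picked for its value. The genes nearest to *Ext1* and *Ext2* were lower after StcE in their estimates, with log2 fold changes from -0.22 (*Efnb1*) to -0.12 (*Llgl1*), and those nearest to *Hyal2* higher, from 0.083 (*Pkm*) to 0.53 (*Mmp3*). *Efnb1* and *Thbs1* did not pass in limma (adjusted p = 0.0631 and 0.0762), and the other 7 did, where 11.9% of all genes tested passed. The correlation included the difference between the groups, so the directions and calls follow in part from how these genes were picked. The call of *Pkm* was lost without saline replicate 1, 2 or 3 or StcE replicate 2, 3 or 5 (limma, adjusted p up to 0.0789, and 0.0153 to 0.143 over 19 alternatives), and that of *Wee1* without saline replicate 1 or 4 or StcE replicate 1 or 3 (up to 0.0631, and 0.0119 to 0.16). The call of *Pcsk6* was lost without saline replicate 1 or 3 or StcE replicate 3 (limma, adjusted p up to 0.065, and 0.00893 to 0.124 over 19 alternatives), and that of *Llgl1* without StcE replicate 3 (0.0531, and 0.0129 to 0.121). *Pkm* shares long stretches of near-identical sequence with *Gm6560*, so its reads are uncertain. A shorter stretch was shared by *Mmp3* with *Gm15242* (284 bases at 95.4% identity). *Pcsk6* instead overlaps a gene in place, with 156 of its exon bases inside *Gm45213* on the same strand. Among the listed genes, *Sulf2* likewise has 154 exon bases overlapping *Ncoa3* on the other strand. Some reads of *Mmp3*, *Pcsk6* and *Sulf2* may be shared too.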

How the data were processed

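RNA was measured in 10 bEnd.3 samples, 5 with saline and 5 with StcE, grouped by their labels. The authors made poly-A selected directional libraries, sequenced them as read pairs, and aligned trimmed reads to GRCm38; the submitters' processing notes name HISAT2 2.0.5, featureCounts 1.5.0-p3 and DESeq2 1.32.0. They deposited FPKM values per sample, covering 27024 named genes; 22874 entries without a gene name were not used. Use of strand in counting and the annotation release are not given in the sources used here. Whole fragments were recovered with GENCODE vM21 exon lengths, for 25898 genes in every sample. The scale of the deposited FPKM followed the median-of-ratios size factor to within 0.0446%, and the total of recovered fragments to within 1.58%, so the values carried a normalisation between samples. Replicates differed beyond sampling noise (chi-square per degree of freedom 3.59 to 6.63 for saline pairs and 3.07 to 8.39 for StcE pairs), so no library was counted as a copy.

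Genes averaging at least 1 FPKM entered the limma fit (version 3.58.1, R 4.3.3), which took log2(FPKM + 1) with condition as its only term and a mean-variance trend in eBayes. The p-values were adjusted by Benjamini-Hochberg over all 11062 genes. Single enzymes were also compared by exact permutation over 252 arrangements, whose smallest two-sided p is 0.00794. Alternatives were a pseudocount of 0.1, no filter, a minimum of 0.1 FPKM, scaling to recovered fragments, eBayes without trend, array weights, voom, a replicate block, and each sample left out in turn; the 8 samples of the block without the block term were an alternative chosen after seeing the data.

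The enzymes and the lists were chosen with earlier results of these data known. Named genes are the 10 enzymes; in each list, those with adjusted p under 0.05 and, if fewer than 2, the 2 with the highest mean FPKM; and for each called enzyme the 3 most correlated genes. Of the 12 called genes, 11 are described singly. *Has1* and *Has3* were named after their values were seen. *Hs6st3*, *Hs3st2*, *Hs3st3a1*, *Hs3st4*, *Bpnt2*, *Cemip2* and *Chsy3* of the lists were not found under those names; *Bpnt2* and *Cemip2* had entries under the older symbols *Impad1* and *Tmem2*, and each is counted once. BLAST 2.17.0 compared the transcripts of 34 of these genes with those of other genes, to find copies (at least 95% identity over 150 bases).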

Additional observations from a re-analysis of the deposited data

Results flagged for a closer look

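Of 68 groups of 5 samples examined (34 genes, each with saline and StcE), 1 held a sample far from the others of its group, and chance gives about 1 in 20. *Llgl1*, listed for its likeness to *Ext2*, was at 17.7 FPKM in saline sample 1, where the other saline samples lay at 16.3 to 16.7 FPKM. The log2 fold change of *Llgl1* was -0.12, and -0.099 without that sample, where it still passed (limma, adjusted p = 0.0443, with a range of 0.0129 to 0.121 over 19 alternatives). No enzyme had such a sample.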

How the results depend on the processing

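As reported, 1320 of 11062 genes passed (709 lower, 611 higher). It was 801 (409 lower, 392 higher) with no filter, where 27024 genes were tested, and 793 to 1255 (409 to 667 lower, 384 to 588 higher) with 1 sample left out, lowest without StcE replicate 3. Scaling to the total of recovered fragments gave 1295, of which 48.5% were lower, against 53.7%.

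Of the enzymes, 3 passed as reported, 0 with no filter, and 0 to 3 with 1 sample left out. *Ext1* no longer passed with no filter (log2 fold change -0.21, adjusted p = 0.111) or a minimum of 0.1 FPKM (-0.21, adjusted p = 0.0582), *Ext2* not with no filter (-0.10, adjusted p = 0.0563), and *Hyal2* not with no filter (0.079, adjusted p = 0.052) or eBayes without trend (0.079, adjusted p = 0.0641), all by limma. The first settings test more genes. Why *Hyal2* lost its call without trend was not tested. *Hs6st1* passed with voom (-0.17, adjusted p = 0.0484); the cause was not tested. With 1 sample left out the log2 fold changes ran from -0.25 to -0.18 for *Ext1*, from -0.12 to -0.088 for *Ext2*, and from 0.071 to 0.093 for *Hyal2*, with fewer samples in each fit. *Ndst2*, at -0.0027, turned to 0.0057 when scaled to recovered fragments and ran from -0.042 to 0.018 with 1 sample left out, without passing; the cause was not tested. Voom gave no value for *Ndst1*, whose fragments were not whole in all samples, or for *Has2*, below the minimum.

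Samples 1, 2, 3 and 5 of each group share a number. Over 11062 genes, deviations of same-numbered samples from their group means correlated at -0.0966 to 0.0538 in 4 pairs, 0 of them over 0.1. None of the 4 saline samples correlated best with the StcE sample of its own number. No shared deviation was thus seen, but these correlations cannot show whether same-numbered samples were handled together. With the replicate block, on 8 samples, 349 genes (162 lower, 187 higher) and 0 enzymes passed, with log2 fold changes of -0.26 for *Ext1*, -0.10 for *Ext2* and 0.10 for *Hyal2* (limma, adjusted p = 0.0775, 0.168 and 0.106). The same 8 samples without the block term, a setting chosen after seeing the data, gave 885 genes (452 lower) and 2 enzymes, with *Ext2* at -0.10 (adjusted p = 0.0802).

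Depth limits *Has2*, with 34 to 96 fragments per sample.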
